A study of Mus musculus with 18 samples.

Results

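The 32 genes described here encode the machinery of the endoplasmic reticulum (ER) unfolded protein response: its sensors, the chaperones and folding enzymes it governs, and the genes of ER-associated degradation, translocation and export. They are a list of gene names that was drawn up with earlier results of these data known; its rule uses no measured value. All 32 were found among the 23420 genes of the count tables and among the 14162 genes tested. RNA was sequenced from primary cardiac fibroblasts of neonatal CD1 mice that had been transduced with a retrovirus carrying Mef2c, Gata4 and Tbx5 on a single transcript, which drives fibroblasts towards a cardiomyocyte-like state (direct cardiac reprogramming). A second set of samples held 12 libraries in 4 groups of 3: a short hairpin RNA (shRNA) against Mtfr1l (shMtfr1l), an shRNA against Opa1 (shOpa1), both shRNAs together (the double knockdown) and a non-targeting shRNA (shNT). All 4 groups received the reprogramming virus, and the 3 libraries of each group carry the labels day 7, day 8 and day 9 and are called biological replicates. In a first set, 1 shMtfr1l sample labelled with 85% knockdown and 1 shNT sample, both at day 7 of reprogramming, could be compared without a test. The labels do not give the promoter of the hairpins or of the virus, nor whether cells of several animals were pooled, and they name both fibroblasts and induced cardiomyocytes as the cell type, so a library may hold both.

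The ER folds secreted and membrane proteins with the help of the Hsp70 chaperone BiP (Hspa5), the Hsp90 chaperone GRP94, lectin chaperones and disulfide isomerases. When unfolded protein accumulates, the sensors IRE1, ATF6 and PERK switch on genes that enlarge this folding capacity and that send misfolded protein to the proteasome; IRE1 does so by splicing the Xbp1 transcript. Fibroblasts secrete large amounts of collagen and load this machinery heavily, and cardiomyocytes use a related membrane system to handle calcium. MTFR1L is an outer mitochondrial membrane protein linked to mitochondrial shape, and OPA1 is the GTPase that fuses inner mitochondrial membranes.

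The shRNA targets were read first. Mtfr1l had 15.7, 13.9 and 19.5 CPM (counts scaled to a common library size) in shMtfr1l libraries of days 7, 8 and 9, 22.8, 31.0 and 27.8 CPM in double-knockdown libraries, 65.8, 71.1 and 72.0 CPM in shOpa1 libraries and 69.4, 69.5 and 76.7 CPM in shNT libraries. Opa1 had 7.43, 6.85 and 12.6 CPM in shOpa1 libraries, 20.7, 15.99 and 18.2 CPM in double-knockdown libraries, 70.7, 72.2 and 73.4 CPM in shMtfr1l libraries and 57.0, 72.6 and 59.7 CPM in shNT libraries. Each target was low in every library that carried its shRNA, and each was reduced less when both hairpins were given: against shMtfr1l, Mtfr1l was higher in the double knockdown by 0.73 ± 0.12 on the log2 scale (SE, n = 3 each, adjusted p = 8.08e-05), and against shOpa1, Opa1 was higher in it by 1.03 ± 0.16 (adjusted p = 0.000488). Here and below, adjusted p-values come from edgeR's quasi-likelihood test with Benjamini-Hochberg adjustment over all 14162 genes, fold changes are log2 with their standard error (SE), and a gene was called where its adjusted p was under 0.05. Where 2 groups of 3 libraries are said not to overlap, this only describes their values. How many of all tested genes also did not overlap was not counted.

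Depth ran from 16205862 to 25317069 gene counts per library. Markers of several cell types differed between the groups. Beside the counts below, the shares called over all tested genes were 9.79% with shMtfr1l, 28.8% with shOpa1 and 23.4% in the double knockdown. The cells expressed the defining markers of both labelled cell types. Of 9 cardiomyocyte markers, 8 rose and 1 fell in shMtfr1l, 7 fell in shOpa1, and 3 rose and 4 fell in the double knockdown; their summed level was 3845 to 4184 CPM in shMtfr1l, 1629.5 to 1845 CPM in shOpa1, 2234 to 2310.4 CPM in the double knockdown and 2854 to 2941 CPM in shNT libraries. Of 9 fibroblast markers, 1 rose and 6 fell in shMtfr1l, 4 rose and 3 fell in shOpa1, and 3 rose and 4 fell in the double knockdown. Their summed level, which includes collagen genes, was 19909 to 21142 CPM in shMtfr1l, 25344 to 26162 CPM in shOpa1, 23112 to 25058 CPM in the double knockdown and 21122 to 22909 CPM in shNT. Of 8 macrophage and leukocyte markers, 7 rose in the double knockdown, 1 rose in shOpa1 and none passed in shMtfr1l. Their summed level was 622 to 796 CPM in the double knockdown, 255 to 664 CPM in shOpa1, 147 to 552 CPM in shMtfr1l and 283 to 422 CPM in shNT libraries. With shOpa1 all 8 differences were above 0, with 5 at an unadjusted p under 0.05 by edgeR. Between the double knockdown and shOpa1 none of these markers was called. Of 7 endothelial markers 1 rose and 1 fell in shMtfr1l and in shOpa1 and 1 rose in the double knockdown, of 7 smooth muscle and pericyte markers 1 rose and 3 fell in each knockdown, and of 6 epicardial markers 4, 3 and 5 fell in shMtfr1l, shOpa1 and the double knockdown. The endothelial shares called were 28.6% with shMtfr1l, 28.6% with shOpa1 and 14.3% in the double knockdown, above that of all genes only with shMtfr1l. Summed, the endothelial markers had 46.3 to 57.1 CPM in shMtfr1l and 47.6 to 61.1 CPM in shOpa1 libraries. They had 51.4 to 57.4 CPM in double-knockdown and 45.6 to 51.2 CPM in shNT libraries. No marker of these 6 lists was at 0 in every library of a group. The part of these shifts in the results below was not tested, and in bulk libraries fewer cells of a type and less RNA per cell cannot be told apart.

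Several of the chaperones and isomerases were among the most abundant messages of these cells. Per transcript length, in TPM (counts divided by transcript length and scaled to a common total) averaged over the 12 libraries of the second set, P4hb (protein disulfide isomerase, which is also a subunit of collagen prolyl 4-hydroxylase) stood highest at 1635, above 99.6% of the tested genes. The chaperones Calr at 1299.8 TPM, Hspa5 at 1025 TPM and the proline isomerase Ppib at 959 TPM followed. The sensors were far lower, with Atf6 at 47.6 TPM and Ern1, which encodes IRE1, at 16.9 TPM, and the mannosidase-family gene Edem2 lay near the middle of all tested genes at 23.0 TPM. Derl3 averaged 0.871 TPM and held 0 to 26 counts in a library, with 0.572, 0.467 and 0.232 CPM in shMtfr1l, 0.594, 0 and 0.286 CPM in shOpa1, 0.415, 1.01 and 0.456 CPM in double-knockdown and 0.244, 0 and 0.851 CPM in shNT libraries; a floor of 3 counts lies at 0.118 to 0.185 CPM, so no difference in Derl3 could be read at this depth. Together the 32 genes made up 0.979% to 0.989% of all TPM in shMtfr1l, 0.974% to 1.01% in shOpa1, 1.02% to 1.03% in double-knockdown and 0.920% to 0.941% in shNT libraries. The shNT libraries held the smallest shares, and those of every knockdown group lay above them. A summed share weighs the most abundant members, such as P4hb, Calr and Hspa5, more than the others, and shares of other genes were not set beside it. Taken gene by gene, the members' median log2 fold change against shNT was 0.04 with shMtfr1l, 0.00 with shOpa1 and 0.06 in the double knockdown.

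The promoters of the members are shown because the elements that the ER stress factors read are short and can be looked for directly. In the RefSeq windows of GRCm38.p6 (250 bases before to 50 bases after a gene's start), 27 of the 32 members had an entry; Sec61a1, Derl1, Manf, Atf6 and Hyou1 had none. On either strand, the ER stress response element (ERSE, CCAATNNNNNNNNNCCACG) was found in 9 members and in 0.119% of all 32851 windows, and its second form (ERSE-II, ATTGG and CCACG with any 1 base between them, which shares its last 5 letters with the ERSE) in 2 further members, Dnajb11 and Herpud1, and in 0.0365% of all windows. The unfolded protein response element (TGACGTGG) was found in Sec24d and in 0.676% of all windows. Both elements read as follows, 5′ to 3′ in the direction of the element, with its fixed letters in capitals.
Hspa5 (chr2:34772025-34772043): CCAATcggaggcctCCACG
Hsp90b1, first (chr10:86705638-86705656): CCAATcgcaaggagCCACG
Hsp90b1, second (chr10:86705533-86705551): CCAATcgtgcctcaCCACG
Calr (chr8:84847075-84847093): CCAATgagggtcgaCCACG
Canx (chr11:50325800-50325818): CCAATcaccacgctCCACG
Pdia6 (chr12:17266491-17266509): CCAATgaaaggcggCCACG
Dnajc3 (chr14:118937827-118937845): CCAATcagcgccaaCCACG
Creld2 (chr15:88819520-88819538): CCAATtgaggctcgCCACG
Syvn1 (chr19:6046532-6046550): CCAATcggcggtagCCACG
Derl3 (chr10:75893242-75893260): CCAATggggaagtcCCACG
Herpud1, ERSE-II (chr8:94386377-94386387): ATTGGgCCACG
Dnajb11, ERSE-II (chr16:22857852-22857862): ATTGGcCCACG
The sites lay 26 to 212 bases before the start, save that of Dnajb11, which lay 7 bases after it. The element ran with the gene in Herpud1, Dnajb11, Hspa5, Canx, Pdia6, Dnajc3, Syvn1 and the first site of Hsp90b1, and against it in Calr, Creld2, Derl3 and the second site of Hsp90b1.

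For a contrast used below, the 250 bases before the start of Hspa5, on the plus strand, and of Dnajb9 and Sel1l, both on the minus strand, are given in the direction of each gene. These genes were picked with their directions of change known, so the contrast is a description and not a test. Capitals mark the ERSE letters in Hspa5; Dnajb9 and Sel1l held no full ERSE or ERSE-II, and there capitals mark copies of its last 5 letters, CCACG, on either strand. These 5 letters alone stood in 32.8% of all windows and in 24 members.
Hspa5 (chr2:34771840-34772089): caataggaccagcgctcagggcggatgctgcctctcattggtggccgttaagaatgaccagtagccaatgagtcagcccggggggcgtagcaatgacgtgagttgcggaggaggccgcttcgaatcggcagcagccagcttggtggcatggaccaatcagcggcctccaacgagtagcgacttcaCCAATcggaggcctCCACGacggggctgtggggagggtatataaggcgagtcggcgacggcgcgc
Dnajb9 (chr12:44210069-44210318): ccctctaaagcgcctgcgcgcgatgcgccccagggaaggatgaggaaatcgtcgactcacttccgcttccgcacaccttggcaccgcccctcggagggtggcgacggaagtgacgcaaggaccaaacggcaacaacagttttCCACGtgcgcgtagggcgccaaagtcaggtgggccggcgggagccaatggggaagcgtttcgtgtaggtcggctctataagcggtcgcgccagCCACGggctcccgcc
Sel1l (chr12:91849158-91849407): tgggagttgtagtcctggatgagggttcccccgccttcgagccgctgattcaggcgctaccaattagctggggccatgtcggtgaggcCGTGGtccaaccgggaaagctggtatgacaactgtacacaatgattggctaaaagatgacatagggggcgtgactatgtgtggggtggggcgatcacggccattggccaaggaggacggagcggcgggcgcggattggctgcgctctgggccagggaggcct
A match in such a window is a description of its letters, and a window without a match says nothing of sites elsewhere. Only exact matches to the fixed letters were counted, so near matches, in Hspa5 or in windows without an element, were not marked.

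With shMtfr1l, a few folding genes were slightly higher and Edem2 was much lower. Of the 32 members, 6 rose and 1 fell, which is 21.9% of them, where 9.79% of all tested genes were called (5% higher and 4.79% lower). A background of more abundant genes, those averaging 20 CPM or more as 30 of the members do, had 15.4% called, 586 higher and 564 lower of 7486. Of these 30 members 20% were called, 6 higher and 0 lower, since Edem2 averaged 19.5 CPM and is not among them. That share was close to the background of like abundance, so the count is not a result about the members. Every rise was small, between 0.13 and 0.22 on the log2 scale, and the median over the members was 0.04, beside 0.00 over all genes. Without shMtfr1l replicate 1 the count of called members was 3, without shMtfr1l replicate 2, shMtfr1l replicate 3 or shNT replicate 1 it was 4, without all libraries of day 7 it was 3, and without those of day 8 or day 9 it was 2. With the other groups left out of the fit it was 4.

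**Figure D1:**
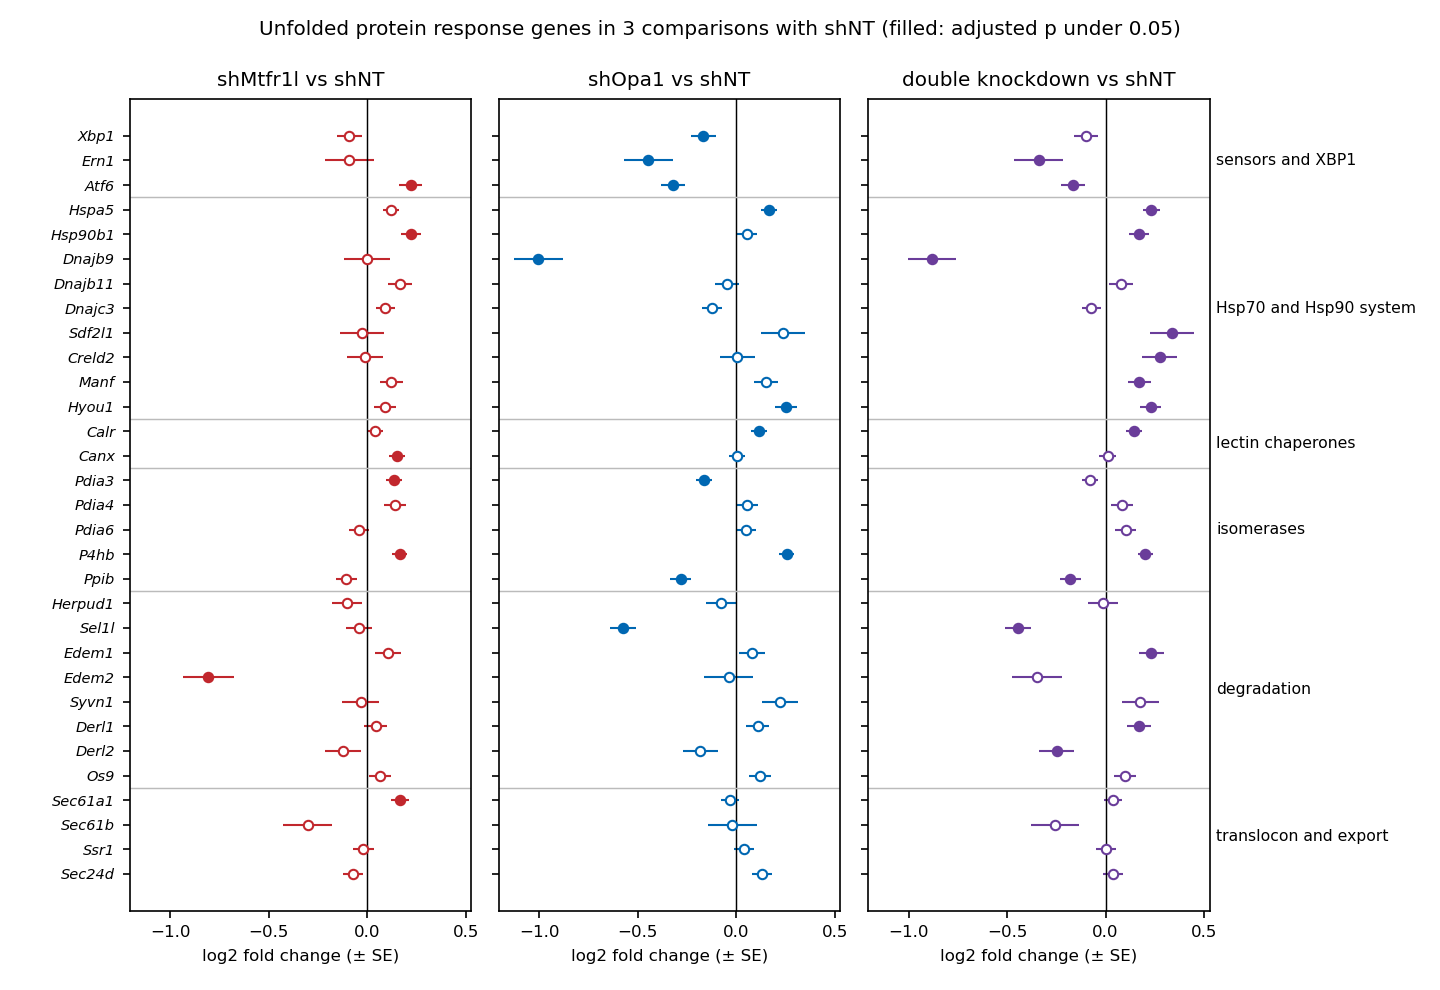
Log2 fold change (x axis, with SE) of 31 of the 32 members (y axis, grouped by role; Derl3, near the floor, is not drawn) for shMtfr1l, shOpa1 and the double knockdown, each against shNT, with 3 libraries per group; filled points had an adjusted p under 0.05. Edem2 at -0.81 is the lowest point with shMtfr1l, and Dnajb9 at -1.0 and Sel1l at -0.58 are the lowest with shOpa1.

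Edem2 belongs to the family of mannosidases that trim the glycans of misfolded glycoproteins and so mark them for degradation. It had 13.5, 14.1 and 12.5 CPM in shMtfr1l libraries and 22.5, 24.8 and 22.8 CPM in shNT libraries, with 18.1, 18.5 and 18.6 CPM in the double knockdown and 24.1, 25.3 and 18.8 CPM in shOpa1 libraries. The shMtfr1l libraries lay below all others without overlap. The log2 fold change in shMtfr1l was -0.81 ± 0.13 (SE, adjusted p = 0.000192), and it stayed called in all 21 alternatives. With shOpa1 Edem2 differed from shNT by -0.04 ± 0.13 (adjusted p = 0.855). In the double knockdown, where Mtfr1l was lowered less, Edem2 was -0.35 ± 0.13 relative to shNT (adjusted p = 0.0522) and rose relative to shMtfr1l by 0.46 ± 0.13 (adjusted p = 0.0132); that last call ended without shMtfr1l replicate 3 (adjusted p = 0.0548) or without the libraries of day 7 (0.0898), day 8 (0.0558) or day 9 (0.0754). The window of Edem2 held neither form of the ERSE, and its paralogue Edem1 did not change with shMtfr1l beyond the threshold (0.11 ± 0.07, adjusted p = 0.378).

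Among the chaperones, Hsp90b1, which encodes GRP94, had 900.1, 872 and 999 CPM in shMtfr1l libraries and 791, 791 and 798 CPM in shNT libraries. All shMtfr1l values lay above the shNT values, day 9 by the widest margin. The rise was 0.22 ± 0.05 (adjusted p = 0.0063), and the call ended without shMtfr1l replicate 3 (adjusted p = 0.0526) or without the libraries of day 9 (0.0724). Hspa5, which encodes BiP, had 976, 966 and 998 CPM in shMtfr1l and 913, 899 and 890.3 CPM in shNT libraries; the groups did not overlap, and the difference of 0.12 ± 0.04 did not pass (adjusted p = 0.0743).

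The isomerase P4hb had 1558, 1523 and 1516 CPM in shMtfr1l libraries and 1394, 1388 and 1322 CPM in shNT libraries, without overlap. It rose by 0.16 ± 0.04 (adjusted p = 0.00588), a call that ended without the libraries of day 8 (0.0635) or day 9 (0.0827). Pdia3, the disulfide isomerase that works with calnexin and calreticulin, had 821, 801 and 845 CPM in shMtfr1l and 759, 738 and 751 CPM in shNT libraries. Its values did not overlap either, and it rose by 0.13 ± 0.04 (adjusted p = 0.0373). This call was less steady: it ended without shMtfr1l replicate 1 (0.0902), shMtfr1l replicate 3 (0.140), shNT replicate 2 (0.129) or shNT replicate 3 (0.091), without the libraries of any single day (0.122 to 0.251), with no filter on low counts (0.084) and with the other groups left out (0.0951).

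The sensor gene Atf6, whose product is a membrane-bound transcription factor freed by proteolysis in the Golgi, had 163, 162 and 149.7 CPM in shMtfr1l libraries and 132, 137 and 139 CPM in shNT libraries. All shMtfr1l values were the higher, and Atf6 rose by 0.22 ± 0.06 (adjusted p = 0.0172); the call ended without shMtfr1l replicate 1 (0.0823), shMtfr1l replicate 2 (0.0689) or shNT replicate 1 (0.0653), and without the libraries of day 7 (0.179) or day 8 (0.175). Sec61a1, the channel subunit of the translocon, had 402, 387 and 379.5 CPM in shMtfr1l and 344, 351 and 348 CPM in shNT libraries, without overlap. It rose by 0.16 ± 0.05 (adjusted p = 0.0233). Its call ended without shMtfr1l replicate 1 or 2 or any shNT library (0.0508 to 0.119), without the libraries of any single day (0.0763 to 0.217) and with the other groups left out (0.0661). The lectin chaperone Canx rose by 0.15 ± 0.04 (adjusted p = 0.0246), a call that ended without any shMtfr1l library or shNT replicate 1 (0.0537 to 0.0974), without the libraries of any single day (0.101 to 0.218), with no filter (0.0521) and with the other groups left out (0.0723). Ern1 and Xbp1 differed by -0.09 ± 0.12 and -0.09 ± 0.06 and did not pass (adjusted p = 0.743 for Ern1 and 0.446 for Xbp1).

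**Figure D2:**
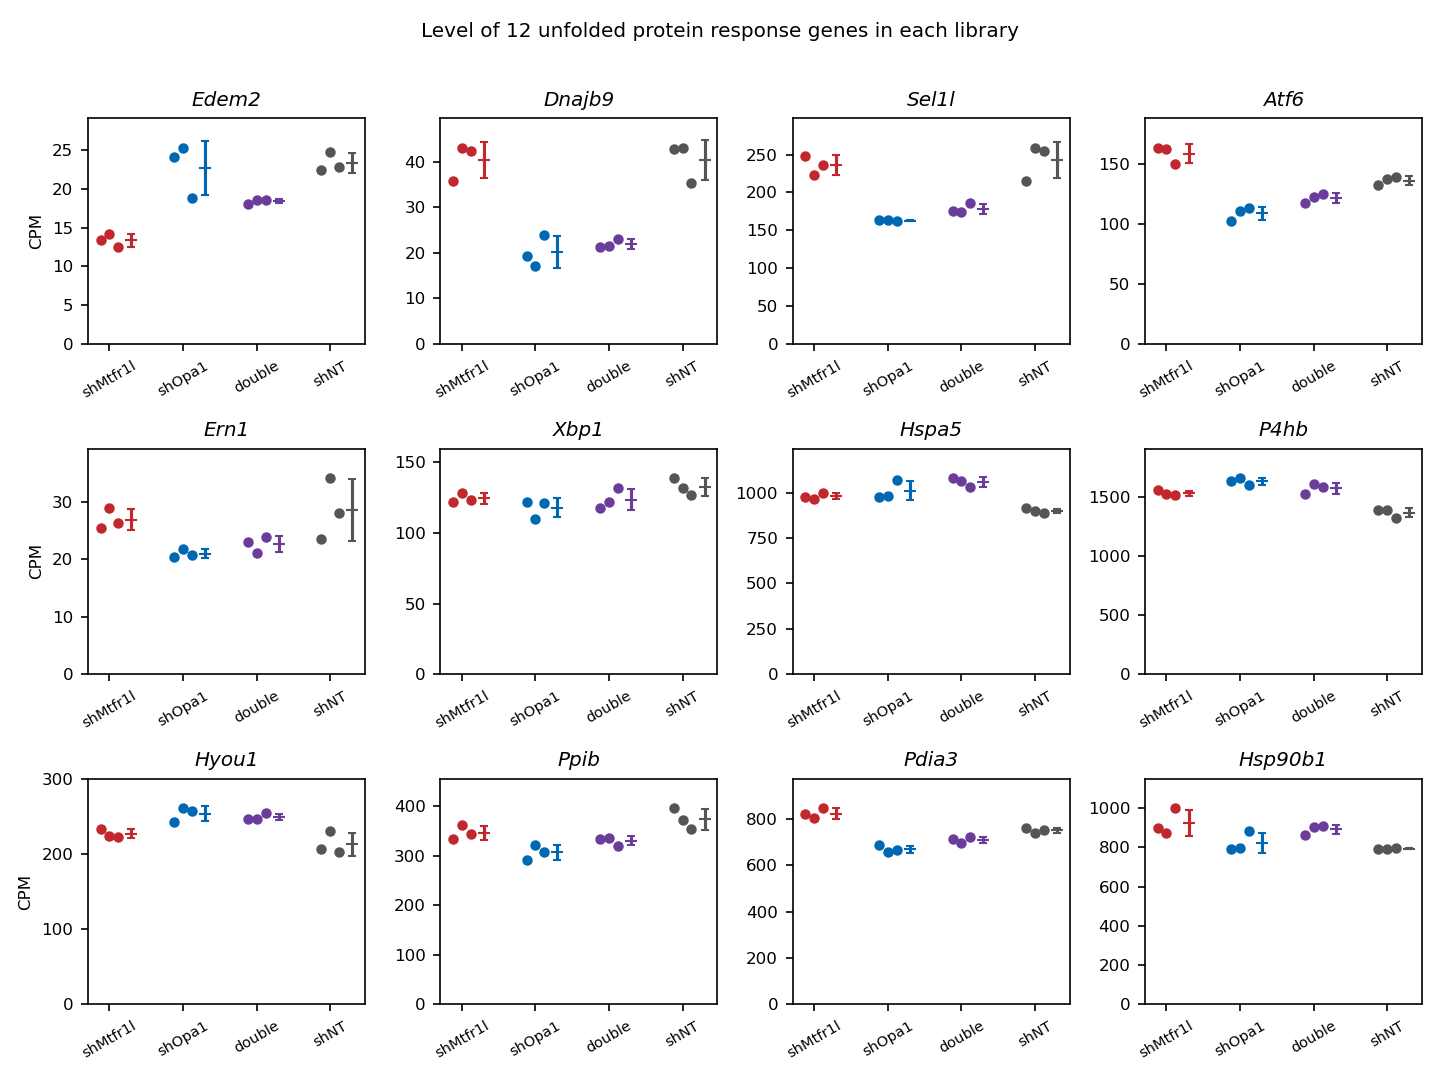
CPM (y axis, from 0) of 12 members in every library of the shMtfr1l, shOpa1, double-knockdown and shNT groups (x axis); points are single libraries of days 7, 8 and 9 from left to right, and bars give the mean and SD of 3. Edem2 lies between 12.5 and 14.1 CPM in shMtfr1l libraries, below the other groups, and Dnajb9 and Sel1l are low in both groups that carry shOpa1.

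With shOpa1 the chaperone genes Hspa5, Hyou1 and Calr and the isomerase gene P4hb were slightly higher, while the sensors Atf6 and Ern1, Xbp1, the degradation gene Sel1l, the cochaperone gene Dnajb9 and the isomerase genes Ppib and Pdia3 were lower. Of the 32 members, 4 rose and 7 fell, 34.4% of them, where 28.8% of all tested genes were called (14% higher and 14.8% lower), and 41.3% of those averaging 20 CPM or more. Of the 30 members averaging 20 CPM or more, 36.7% were called. The share of members called was near the background of this comparison, so the count is not a result about the members. The largest falls were those of Dnajb9 and Sel1l, and all 3 members of the sensor and transcription factor group fell. The median over the members was 0.00, beside 0.01 over all genes. Without any single library or day the count ran from 8 to 11 members.

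Dnajb9 encodes ERdj4, a J-domain cochaperone of BiP and a target of XBP1. It had 19.3, 17.1 and 24.0 CPM in shOpa1 libraries and 42.8, 43.1 and 35.4 CPM in shNT libraries. The 2 groups were far apart, and the log2 fold change of -1.0 ± 0.12 (adjusted p = 1.22e-06) corresponded to a 2.01-fold lower level, called in all 21 alternatives. Sel1l encodes the adaptor that links the ubiquitin ligase HRD1 to its substrates. It had 163, 163 and 162 CPM in shOpa1 and 215, 259 and 255 CPM in shNT libraries, where the shOpa1 values were nearly equal and all lower. Its log2 fold change was -0.58 ± 0.06 (adjusted p = 3.18e-07), also called in all 21 alternatives. Neither promoter window held an ERSE or ERSE-II. Syvn1, which encodes HRD1 itself, was not called, with a difference of 0.22 ± 0.09 (adjusted p = 0.077).

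Among the sensors, Atf6 had 103, 111 and 113 CPM in shOpa1 libraries and 132, 137 and 139 CPM in shNT libraries. All shOpa1 values were the lower, and the log2 fold change of -0.32 ± 0.06 (adjusted p = 0.000202) was called in all 21 alternatives. Ern1 had 20.4, 21.8 and 20.8 CPM in shOpa1 and 23.6, 34.2 and 28.0 CPM in shNT libraries; the groups did not overlap, but day 8 of shNT stood high. The log2 fold change of -0.45 ± 0.12 (adjusted p = 0.00816) was lost without that library, shNT replicate 2 (adjusted p = 0.0987), or without all libraries of day 8 (0.123). Xbp1 had 122, 110.0 and 121 CPM in shOpa1 and 139, 132 and 127 CPM in shNT libraries, lower in each shOpa1 library. Its log2 fold change of -0.17 ± 0.06 was only just called (adjusted p = 0.0468). It was not called with replicate number as a blocking term (0.0641), with no filter (0.0566), with the other groups left out (0.0549), without any shOpa1 library, shNT replicate 1 or 2, shMtfr1l replicate 1 or 2 or double-knockdown replicate 2 (0.0509 to 0.200), or without the libraries of day 7 (0.141) or day 8 (0.321). Counts per gene do not separate spliced from unspliced Xbp1, so the activity of IRE1 was not measured.

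Of the abundant chaperone genes Hspa5 and Calr rose, and Hsp90b1 and Canx were not called. Hspa5 had 978, 982 and 1069.9 CPM in shOpa1 libraries and 913, 899 and 890.3 CPM in shNT libraries, every shOpa1 value being higher. It rose by 0.17 ± 0.04 (adjusted p = 0.00435), a call lost without the libraries of day 9 (0.124). Hyou1, an Hsp70-family exchange factor of BiP, had 242, 261 and 258 CPM in shOpa1 and 206, 230.2 and 203 CPM in shNT libraries, without overlap. It rose by 0.25 ± 0.06 (adjusted p = 0.00118) and was called in all 21 alternatives. Calr had 931, 945 and 993 CPM in shOpa1 and 899, 876 and 871 CPM in shNT libraries; its rise of 0.12 ± 0.04 (adjusted p = 0.0341) was lost with the replicate block (0.0501), with no filter (0.0547), with the other groups left out (0.0728), without shNT replicate 2 or 3 or shOpa1 replicate 2 or 3 (0.0599 to 0.158), and without the libraries of day 8 (0.165) or day 9 (0.330). Hsp90b1 differed by 0.05 ± 0.05 (adjusted p = 0.487) and Canx by 0.00 ± 0.04 (adjusted p = 0.981).

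The isomerases divided. P4hb had 1636, 1662 and 1603 CPM in shOpa1 libraries and 1394, 1388 and 1322 CPM in shNT libraries, and rose by 0.26 ± 0.04 (adjusted p = 1.47e-05) without overlap. Ppib, which encodes cyclophilin B and takes part in collagen folding, had 292, 322 and 308 CPM in shOpa1 and 396, 372 and 353 CPM in shNT libraries and was lower in each, with a log2 fold change of -0.28 ± 0.05 (adjusted p = 0.000271). Pdia3 had 685, 658 and 663 CPM in shOpa1 and 759, 738 and 751 CPM in shNT libraries and was lower in each, with a log2 fold change of -0.16 ± 0.04 (adjusted p = 0.00352). All 3 calls held in all 21 alternatives. The 4 translocon and export members differed by -0.03 to 0.13 and were not called, with 1 of them at an unadjusted p under 0.05.

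In the double knockdown the chaperone genes Hspa5, Hyou1, Hsp90b1 and Calr and the isomerase gene P4hb were higher. So were the stress-induced genes Sdf2l1, Creld2 and Manf and the degradation genes Edem1 and Derl1. Dnajb9, Sel1l, Ppib, Derl2 and the sensors Atf6 and Ern1 were lower. Of the 32, 10 rose and 6 fell, 50% of them, where 23.4% of all tested genes were called (11.8% higher and 11.6% lower) and 33.7% of those averaging 20 CPM or more. Of the 30 members averaging 20 CPM or more, 53.3% were called. Among the 9 genes grouped here with the chaperones and cochaperones of the Hsp70 and Hsp90 systems, Creld2 and Manf included, 6 rose and 1 fell. Of the 9 degradation genes 2 rose and 2 fell. The median over the members was 0.06, beside 0.00 over all genes. The count depended on single libraries: it was 10, 8 and 10 without double-knockdown replicates 1, 2 and 3, 9 without shNT replicate 2 and 7 without shNT replicate 3, and 7, 7 and 6 without the libraries of days 7, 8 and 9. In the double knockdown 7 of the 8 macrophage and leukocyte markers were also higher, as given above.

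**Figure D3:**
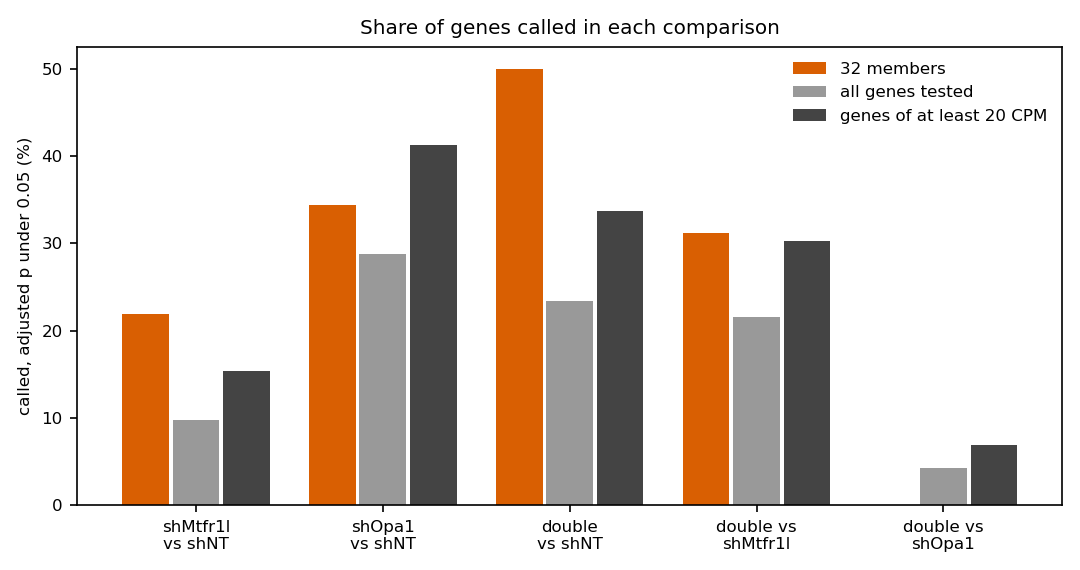
Share of genes with an adjusted p under 0.05 (y axis, percent, from 0) in 5 comparisons of the second set (x axis) for the 32 members, for all 14162 genes tested and for the 7486 tested genes averaging 20 CPM or more. The members stand at 50% in the double knockdown against shNT, above both backgrounds at 23.4% and 33.7%, near them with shOpa1, and at 0% for the double knockdown against shOpa1.

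Hspa5 had 1080.4, 1064 and 1029 CPM in double-knockdown libraries and 913, 899 and 890.3 CPM in shNT libraries. The groups were well apart, and the rise of 0.23 ± 0.04 (adjusted p = 0.000294) was called in all 21 alternatives. Hyou1 had 247, 247 and 255 CPM in double-knockdown and 206, 230.2 and 203 CPM in shNT libraries and rose by 0.23 ± 0.06 (adjusted p = 0.0038), a call lost without the libraries of day 9 (0.0951). Hsp90b1 had 863, 901 and 909 CPM in double-knockdown and 791, 791 and 798 CPM in shNT libraries, without overlap. Its rise of 0.17 ± 0.05 (adjusted p = 0.0188) was lost without double-knockdown replicate 2 or 3 or shNT replicate 2 or 3 (0.0507 to 0.0726), or without the libraries of day 7 (0.0561) or day 8 (0.137).

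Sdf2l1, Creld2 and Manf, whose products are stress-induced ER proteins, were also called higher. Sdf2l1 rose by 0.34 ± 0.11 (adjusted p = 0.0294), Creld2 by 0.27 ± 0.09 (0.0278) and Manf by 0.17 ± 0.06 (0.0388), and for each of the 3 genes every double-knockdown value lay above every shNT value. With shOpa1 they differed from shNT by 0.23 ± 0.11 (adjusted p = 0.126), 0.01 ± 0.09 (0.974) and 0.15 ± 0.06 (0.0651), and none of the 3 differed between the double knockdown and shOpa1 beyond the threshold. Each call was fragile. Sdf2l1 lost it without double-knockdown replicate 1 or 2 or shNT replicate 2 or 3 (0.0855 to 0.120) and Creld2 without double-knockdown replicate 1 or 2 or any shNT library (0.0505 to 0.116). Manf lost it without the same 5 libraries as Creld2 (0.0652 to 0.149), with the replicate block (0.0518) and with no filter (0.0565), and all 3 lost it without the libraries of any single day (0.0595 to 0.214).

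Of the lectin chaperones and isomerases, Calr had 956, 989 and 978 CPM in double-knockdown libraries and 899, 876 and 871 CPM in shNT libraries, and rose by 0.14 ± 0.04 (adjusted p = 0.0117); the call was lost without double-knockdown replicate 2 (0.0515) or shNT replicate 3 (0.0514) and without the libraries of day 8 (0.168) or day 9 (0.101). P4hb had 1527, 1614 and 1582 CPM in double-knockdown and 1394, 1388 and 1322 CPM in shNT libraries and rose by 0.20 ± 0.04 (adjusted p = 0.000381), in all 21 alternatives. Ppib had 334, 336 and 319.9 CPM in double-knockdown and 396, 372 and 353 CPM in shNT libraries, all lower. Its log2 fold change of -0.18 ± 0.05 (adjusted p = 0.0165) was not called without double-knockdown replicate 3 (0.0777) or shNT replicate 1 (0.0827), or without the libraries of day 7 (0.109) or day 8 (0.0673).

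Dnajb9 had 21.2, 21.5 and 23.2 CPM in double-knockdown libraries and 42.8, 43.1 and 35.4 CPM in shNT libraries, and Sel1l had 175, 174 and 186 CPM in double-knockdown and 215, 259 and 255 CPM in shNT libraries. Neither gene's groups overlapped, and both calls held in all 21 alternatives, with a log2 fold change of -0.88 ± 0.12 for Dnajb9 (adjusted p = 1.24e-05) and of -0.45 ± 0.06 for Sel1l (adjusted p = 1.93e-05). Both genes fell with shOpa1 as well, a comparison that uses the same shNT libraries. Atf6 had 117, 122 and 125 CPM in double-knockdown and 132, 137 and 139 CPM in shNT libraries (-0.17 ± 0.06, adjusted p = 0.0453). That call was lost with the block (0.058), with no filter (0.0614), without any double-knockdown library, shNT replicate 2 or 3 or shMtfr1l replicate 2 (0.0519 to 0.165) and without the libraries of any single day (0.124 to 0.206). Ern1 had 23.1, 21.1 and 23.8 CPM in double-knockdown and 23.6, 34.2 and 28.0 CPM in shNT libraries, and these overlapped (-0.34 ± 0.12, adjusted p = 0.0482). It was not called with the block (0.0629), without any double-knockdown library, shNT replicate 2 or 3, shMtfr1l replicate 1 or 3 or shOpa1 replicate 1 or 2 (0.0503 to 0.343), or without the libraries of day 8 (0.569) or day 9 (0.100). Xbp1 had 117, 122 and 132 CPM in double-knockdown libraries and was not called (-0.10 ± 0.06, adjusted p = 0.276).

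Of the other degradation genes, Edem1 had 147, 138 and 148 CPM in double-knockdown libraries and 119, 131 and 119 CPM in shNT libraries, without overlap. It rose by 0.23 ± 0.07 (adjusted p = 0.0112), and lost the call without shNT replicate 3 (0.0593) or the libraries of day 7 (0.134) or day 9 (0.0945). The derlins, membrane proteins of the retrotranslocation machinery, went apart: Derl1 rose by 0.17 ± 0.06 (adjusted p = 0.0438) and Derl2 had a log2 fold change of -0.25 ± 0.09 (adjusted p = 0.0456). Both were only just called. Derl1 lost its call without shNT replicate 1 or 2, double-knockdown replicate 2 or 3, shMtfr1l replicate 1 or shOpa1 replicate 2 (0.0506 to 0.201) and without the libraries of any single day (0.0716 to 0.243). Derl2 lost it with the block (0.0559), with the other groups left out (0.0506), without shNT replicate 1 or 3, double-knockdown replicate 1 or 3, shMtfr1l replicate 1 or shOpa1 replicate 1 (0.0531 to 0.264) and without the libraries of day 7 (0.297) or day 9 (0.283).

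Set directly against shMtfr1l, the double knockdown had 4 members higher and 6 lower, 31.2% of the members, beside 21.5% of all tested genes (10.2% higher and 11.3% lower) and 30.3% of those averaging 20 CPM or more, a share close to that of the members. Of the 30 members averaging 20 CPM or more, 30% were called. The largest falls were again those of Dnajb9 (-0.88 ± 0.12, adjusted p = 1.26e-05), with 35.8, 43.0 and 42.3 CPM in shMtfr1l libraries, and Sel1l (-0.40 ± 0.06, adjusted p = 6.27e-05), with 248, 223 and 237 CPM in shMtfr1l libraries. Atf6 fell as well (-0.39 ± 0.06, adjusted p = 4.12e-05), as did Pdia3 (-0.21 ± 0.04, adjusted p = 0.000504), and these 4 calls held in all 21 alternatives. Canx (-0.14 ± 0.04) and Dnajc3, a J-domain cochaperone (-0.16 ± 0.05), were also lower, and Sdf2l1 (0.37 ± 0.11), Creld2 (0.29 ± 0.09), Pdia6 (0.14 ± 0.05) and Edem2 were higher, with adjusted p-values of 0.0132 to 0.0449. Each of these 6 calls ended without single libraries. Canx lost its call without shMtfr1l replicate 1 or 3 or double-knockdown replicate 1 or 2 (0.0506 to 0.0604), Dnajc3 without shMtfr1l replicate 1 or 3 or double-knockdown replicate 2 (0.0609 to 0.093), and Sdf2l1 without shMtfr1l replicate 1 or 2 or double-knockdown replicate 1 or 2 (0.066 to 0.0887). Creld2 lost it without shMtfr1l replicate 1 or 3 or double-knockdown replicate 1 (0.0727 to 0.129), Edem2 as given above, and Pdia6 without any of 8 libraries, shMtfr1l and double-knockdown replicates 1 and 3, shNT replicates 2 and 3 and shOpa1 replicates 1 and 2 (0.0504 to 0.221), and with the block (0.0651). Without the libraries of day 7, 8 or 9 the count of called members was 4, 5 and 5, without shMtfr1l replicate 1 or double-knockdown replicate 1 it was 6, and without shMtfr1l replicate 3 it was 5.

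Against shOpa1, the double knockdown had no member called by edgeR, where 4.22% of all tested genes were called (2.05% higher and 2.17% lower), and 6.83% of those averaging 20 CPM or more. DESeq2 called none either, and 6 of the 32 had an unadjusted p under 0.05. The largest differences of well-counted members were Edem2 at -0.31 ± 0.13 (adjusted p = 0.212) and Creld2 at 0.27 ± 0.09 (adjusted p = 0.0985), and their values did not overlap between the groups. For Edem2 the gap was narrow, from 18.56 CPM in a double-knockdown library to 18.79 CPM in a shOpa1 library. For Sel1l the difference was 0.13 ± 0.06 (adjusted p = 0.31) and for Atf6 0.16 ± 0.06 (adjusted p = 0.158); a p that misses the threshold does not show that the levels were the same. The interaction, which asks whether both knockdowns together differ from the sum of the single effects on the log2 scale, called P4hb alone, at -0.22 ± 0.05 (adjusted p = 0.0265), beside 2.86% of all tested genes (1.27% higher and 1.59% lower) and 4.78% of those averaging 20 CPM or more. P4hb rose in each single knockdown and in the double knockdown by less than the sum of both. The call ended without shMtfr1l replicate 1, double-knockdown replicate 1 or 3, shNT replicate 3 or shOpa1 replicate 1 or 2 (adjusted p 0.0555 to 0.0851) and without the libraries of any single day (0.113 to 0.187), and in the double knockdown both targets were lowered less than in the single knockdowns.

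The calls were also read by the letters of the promoter windows. With shOpa1, of the 11 members whose window held an ERSE or ERSE-II 2 rose (Hspa5 and Calr) and none fell, while of the 16 members with a window and neither element 1 rose and 6 fell (Dnajb9, Sel1l, Ern1, Xbp1, Ppib and Pdia3). In the double knockdown 4 of the 11 rose (Hspa5, Hsp90b1, Calr and Creld2) and none fell, and 3 of the 16 rose and 5 fell. With shMtfr1l 2 of the 11 rose (Hsp90b1 and Canx) and none fell, and 2 of the 16 rose and 1 fell. Of the 5 members with no window, 2 rose with shMtfr1l, 1 rose and 1 fell with shOpa1, and 3 rose and 1 fell in the double knockdown. Between the double knockdown and shMtfr1l the directions were mixed: 2 of the 11 rose (Creld2 and Pdia6) and 2 fell (Canx and Dnajc3), 2 of the 16 rose and 3 fell, and 1 of the 5 fell. For all tested genes the shares called lower were 4.79% with shMtfr1l, 14.8% with shOpa1 and 11.6% in the double knockdown, each against shNT, and 11.3% in the double knockdown against shMtfr1l. In the same order, the shares called higher were 5%, 14%, 11.8% and 10.2%. Derl3, too low to be read, is 1 of the 11 and is included in the counts above and the medians that follow. The median log2 fold changes against shNT were 0.09 for members with an element and -0.04 for those with neither with shMtfr1l, 0.01 and -0.03 with shOpa1, and 0.14 and -0.09 in the double knockdown. The comparisons share libraries, and the split was made with the directions of change known, so it was not tested. Members counted as having neither element may hold near matches, which were not looked for.

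**Figure D4:**
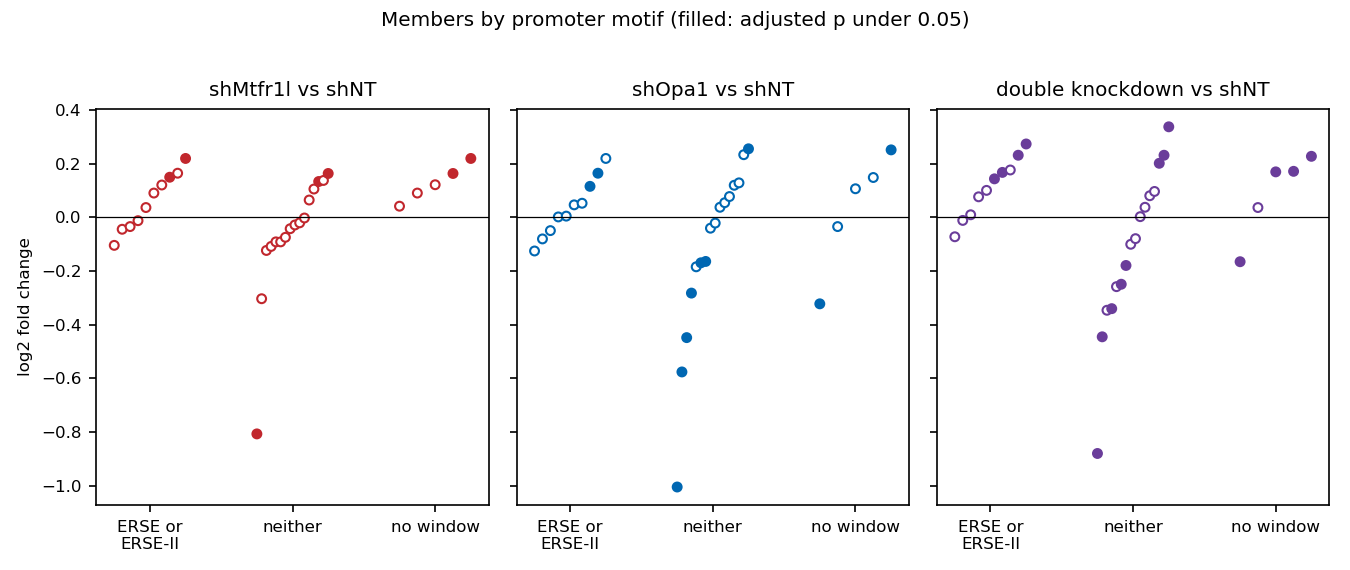
Log2 fold change against shNT (y axis) of 31 members (Derl3 is not drawn) by the letters of their promoter window (x axis: ERSE or ERSE-II present, neither present, or no window available), for shMtfr1l, shOpa1 and the double knockdown; filled points had an adjusted p under 0.05. No member with an ERSE or ERSE-II was called lower in these 3 comparisons, whereas Canx and Dnajc3 were lower in the double knockdown against shMtfr1l, which is not drawn; the lowest points, Edem2, Dnajb9 and Sel1l, are members with neither.

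Members that were never called were Pdia4, Dnajb11, Herpud1, Syvn1, Derl3, Os9, Sec61b, Ssr1 and Sec24d. Their differences from shNT, Derl3 aside, lay between -0.30 (Sec61b with shMtfr1l) and 0.22 (Syvn1 with shOpa1). Herpud1, a stress-induced scaffold of the HRD1 complex and among the usual reporters of the response, differed from shNT by -0.10 ± 0.08 with shMtfr1l, -0.08 ± 0.08 with shOpa1 and -0.01 ± 0.08 in the double knockdown (adjusted p = 0.483, 0.482 and 0.943 by edgeR).

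In the first set Edem2 stood out again. Its level was 9.65 CPM in shMtfr1l and 27.9 CPM in shNT, with 10.5, 9.81 and 8.72 CPM in the 3 count columns of the shMtfr1l sample against 25.6, 30.1 and 27.6 CPM in the 3 columns of the shNT sample. Mtfr1l itself had 8.73 CPM in shMtfr1l and 79.2 CPM in shNT. The Edem2 difference was -1.53 on the log2 scale, and -1.77 to -1.28 over the 9 pairs of columns; columns of 1 sample are not replicates of the condition. Of the 32 members only Edem2 and Derl3 differed by more than 1.5-fold, where 16.8% of 15198 genes did (6.17% higher and 10.6% lower), and the Derl3 difference of 1.09 ran from -1.01 to 2.53 over the column pairs at levels near 1 CPM.

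Counting differences of any size, 27 of the 32 members were higher in the shMtfr1l sample than in the shNT sample, where 50% of all genes and 53% of the 7521 genes with at least 20 CPM were. The median difference was 0.18 over the members and 0.02 over those 7521 genes. With plain library totals in place of the trimmed-mean scaling, 29 of the 32 members and 57.2% of all genes were higher. Dnajb11, which encodes the BiP cochaperone ERdj3, had 169 CPM in shMtfr1l and 126 CPM in shNT, a difference of 0.42 and the largest rise among the well-counted members. Hsp90b1 had 1002 CPM in shMtfr1l and 795 CPM in shNT (0.34) and Hspa5 had 849.6 CPM in shMtfr1l and 699 CPM in shNT (0.28), and both were higher in all 9 column pairs. Ern1 was lower, with 31.0 CPM in shMtfr1l and 40.9 CPM in shNT (-0.40), and Xbp1 was higher (0.18). In the second set 17 of the 32 members were higher in shMtfr1l than in shNT, beside 7154 of the 14162 tested genes and 3908 of the 7486 averaging 20 CPM or more. This share was near that of all genes, unlike in the first set. Opposite signs in the 2 sets were found for 12 members, Xbp1, Dnajb9 and Sdf2l1 among them. These first-set values have no replicate check.

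**Figure D5:**
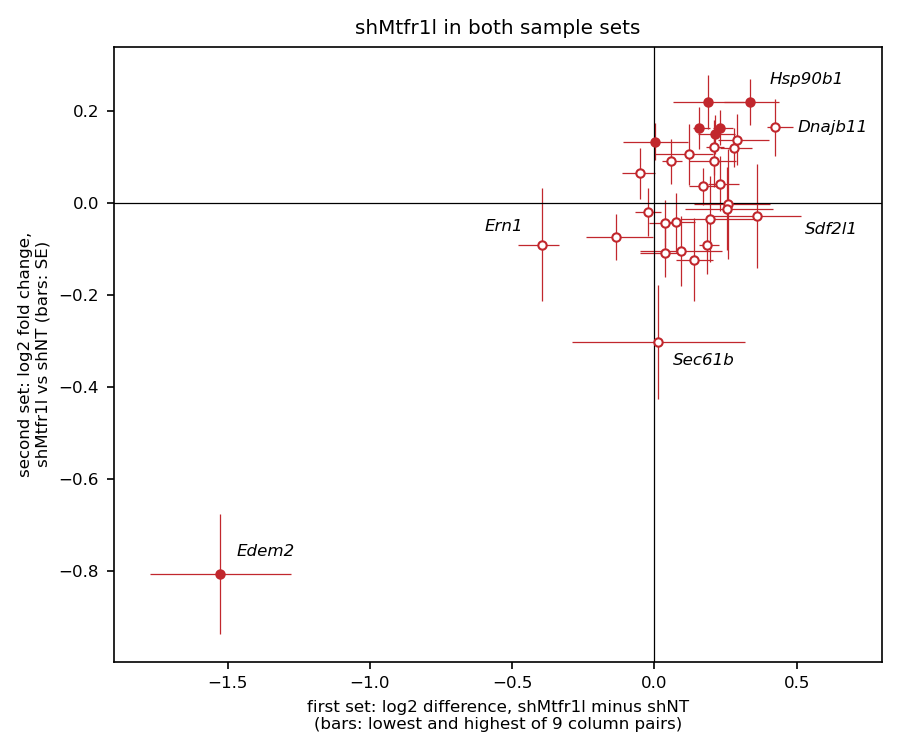
Log2 difference of shMtfr1l minus shNT in the first set (x axis, 1 sample each, bars from the lowest to the highest of 9 column pairs) and log2 fold change of shMtfr1l against shNT in the second set (y axis, 3 libraries each, bars SE) for 31 members (Derl3 is not drawn); filled points had an adjusted p under 0.05 in the second set. Edem2 at -1.53 and -0.81 lies apart from the others, most of which are above 0 in the first set.

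Other genes of the same pathways were read from lists of the secretory route, whose counts stand beside called shares over all tested genes of 9.79% with shMtfr1l, 28.8% with shOpa1 and 23.4% in the double knockdown, or 15.4%, 41.3% and 33.7% of genes averaging 20 CPM or more. Of 9 tested further sensors and regulators, 1 rose in shMtfr1l (Mbtps1, 0.18 ± 0.06), 3 rose and 2 fell in shOpa1, and 1 fell in the double knockdown. Mbtps2, the site-2 protease that frees ATF6, fell in shOpa1 (22.3 ± 1.61 CPM in shOpa1 libraries and 33.8 ± 2.76 CPM in shNT libraries, -0.60 ± 0.12, adjusted p = 0.000641) and in the double knockdown (-0.35 ± 0.12, adjusted p = 0.0394). With shOpa1, Atf6b (0.268 ± 0.065, adjusted p = 0.00296) and Creb3 (0.238 ± 0.063, adjusted p = 0.00591) rose, and Creb3l1 fell (-0.236 ± 0.066, adjusted p = 0.00898). Of 12 effectors of the PERK branch, none rose and 2 fell in shMtfr1l, 4 rose and 2 fell in shOpa1, and 4 rose and 1 fell in the double knockdown. Atf3, a stress-induced transcription factor, averaged 32.9 ± 0.814 CPM in shOpa1 libraries and 13.7 ± 1.94 CPM in shNT libraries (SD, n = 3 each), a rise of 1.26 ± 0.15 (adjusted p = 5.96e-07), whereas Ddit4, an inhibitor of mTORC1 signalling, fell in all 3 comparisons, by the most in shOpa1 (-1.05 ± 0.10, adjusted p = 3.65e-08).

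Of 16 further genes of COPII export, the coat that carries cargo out of the ER, 10 rose and 1 fell in shOpa1, 7 rose and 1 fell in the double knockdown, and 2 rose and 1 fell in shMtfr1l; the shares called were 68.8% with shOpa1, 50% in the double knockdown and 18.8% with shMtfr1l. The gene that fell with shOpa1 was Sar1b, the GTPase that starts coat assembly, with 31.4 ± 2.84 CPM in shOpa1 libraries and 87.2 ± 6.36 CPM in shNT libraries (-1.47 ± 0.09, adjusted p = 2.69e-11). Lman1, a cargo receptor, rose in shOpa1 (0.51 ± 0.05, adjusted p = 1.52e-07) and fell in shMtfr1l (-0.37 ± 0.05, adjusted p = 5.32e-05). The median over the list was 0.22 in shOpa1, beside 0.01 over all genes. Sec24d, the COPII gene among the members, was not called.

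Of 24 further folding enzymes, 4 rose and 1 fell in shMtfr1l, 7 rose and 6 fell in shOpa1, and 6 rose and 5 fell in the double knockdown, which is 20.8%, 54.2% and 45.8% of the list. The fall in shMtfr1l was that of Txndc5, a disulfide isomerase, with 505 ± 13.4 CPM in shMtfr1l libraries and 736 ± 15.3 CPM in shNT libraries (-0.54 ± 0.04, adjusted p = 9.6e-09). Prkcsh, a glucosidase II subunit, rose in shOpa1 (0.54 ± 0.05, adjusted p = 2.41e-08), as did Uggt1, the glucosyltransferase that checks glycoprotein folding (0.48 ± 0.05, adjusted p = 5.66e-08). Of 21 further degradation genes, 2 rose and 1 fell in shMtfr1l, 6 rose and 5 fell in shOpa1, and 3 rose and 3 fell in the double knockdown. Man1b1, the ER mannosidase that acts in the same trimming pathway as the EDEM proteins, fell in shMtfr1l (-0.49 ± 0.06, adjusted p = 3.46e-06) and rose in shOpa1 (0.38 ± 0.06, adjusted p = 1.94e-05). Edem3, the third gene of the family, fell in shOpa1 (-0.54 ± 0.06, adjusted p = 4.05e-07).

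Of 21 translocon and signal peptide genes, 1 rose and 2 fell in shMtfr1l, 3 rose and 4 fell in shOpa1, and 2 rose and 5 fell in the double knockdown. The signal peptidase subunit Spcs2 fell in shMtfr1l (-0.74 ± 0.08, adjusted p = 1.35e-06) and Spcs3 fell in shOpa1 (-0.75 ± 0.06, adjusted p = 1.05e-09). Of 12 oligosaccharyltransferase genes, 1 rose and 1 fell in shMtfr1l, 2 rose and 3 fell in shOpa1, and 1 rose and 4 fell in the double knockdown; Magt1 had the largest change of these, at -1.21 ± 0.09 in shOpa1 (adjusted p = 7.24e-10).

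Collagen, the main cargo of fibroblast ER, was measured beside its folding enzymes. Of 14 genes of procollagen processing, 1 rose and 3 fell in shMtfr1l, 8 rose and 3 fell in shOpa1, and 5 rose and 3 fell in the double knockdown, among them Plod1, a lysyl hydroxylase, which rose in shOpa1 (0.45 ± 0.06, adjusted p = 1.08e-05). Of 9 collagen and fibronectin genes, 1 rose and 4 fell in shMtfr1l, 3 rose and 1 fell in shOpa1, and 2 rose and 3 fell in the double knockdown. Col3a1 averaged 4574 ± 102 CPM in shMtfr1l libraries and 7255 ± 175 CPM in shNT libraries (-0.67 ± 0.03, adjusted p = 1.39e-12), and rose in shOpa1 (0.44 ± 0.03, adjusted p = 1.09e-10). The summed level of the 9 cargo genes was 57516 to 62139.5 CPM in shMtfr1l, 62483 to 64805 CPM in shOpa1, 60329 to 63272 CPM in double-knockdown and 56944 to 62911 CPM in shNT libraries, with each knockdown's range overlapping that of shNT.

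The cytosolic heat shock genes, which answer to misfolded protein outside the ER, were read for contrast. Of 12 tested, 3 rose and 1 fell in shOpa1 and 4 rose in the double knockdown. With shMtfr1l their log2 differences ran from -0.28 to 0.15, with 1 of the 12 at an unadjusted p under 0.05 and no edgeR call. Hsph1, an Hsp70-family exchange factor of the cytosol, averaged 105 ± 2.91 CPM in shOpa1 libraries and 54.3 ± 1.27 CPM in shNT libraries (0.95 ± 0.06, adjusted p = 1.04e-10), and rose in the double knockdown as well (0.58 ± 0.06, adjusted p = 5.14e-07). Hspa8, the constitutive cytosolic Hsp70, rose in shOpa1 (0.53 ± 0.11, adjusted p = 0.000972) and in the double knockdown (0.43 ± 0.11, adjusted p = 0.00717).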

How the data were processed

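RNA-seq libraries were prepared from 1 microgram of RNA each, per the labels' protocols. The deposited tables hold whole-number counts per gene made with featureCounts 2.0.6, per the file headers, on mm10. The submitters' processing notes also list FastQC and DESeq2 but no aligner. Even numbers made up 65.86% of second-set counts between 1 and 20, and 72.51% of first-set ones, so both mates of most pairs appear to have been counted, and counting error is larger than the counts alone imply. The 12 libraries of the second set had 16205862 to 25317069 counts. The first set's shMtfr1l and shNT reprogramming samples had 62923192 and 67068683 counts, each summed over 3 columns. Another 12 columns, of 4 first-set samples, were not analysed here, since their names could not be tied to a sample.

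The members and the other gene lists were chosen with earlier results of these data known. Groups follow the sample titles; a genotype label that reads shOpa1, shOpa2 and shOpa3 across replicates is not explained. The labels do not say whether libraries came from separate litters or cultures, so p-values may measure only technical spread. Genes were filtered with edgeR's filterByExpr, scaled by the trimmed mean of M-values (factors 0.975 to 1.017) and fitted over the 4 groups with edgeR 4.0.16 (R 4.3.3) by the quasi-likelihood test, adjusted by Benjamini-Hochberg over 14162 genes. The common coefficient of variation was 12.04% with 8 residual degrees of freedom. CPM uses the scaled library sizes, and TPM was computed from the deposited counts and the gene lengths in the tables. The fit was tested on simulated data. Chi-square per gene was 5.371 to 10.295 between libraries of a group and 4.358 to 7.523 between columns of 1 first-set sample. These ranges overlap, so this does not show whether libraries are separate samples, and they were counted as labelled.

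Values in every library are given for the members called against shNT or in the interaction, at most 14 by smallest adjusted p, and for Hspa5, Xbp1, Atf6 and Ern1; from each other list, up to 4 genes per comparison with the smallest adjusted p could be named, and the text gives some of these. The replicate numbers stand for days 7, 8 and 9 in the titles. Alternatives were RLE size factors, DESeq2 1.42.0, no filter beyond 1 count, the replicate number as a block, only the groups compared, each library and each day left out, and, added after seeing the data, a robust dispersion; the background of genes with at least 20 CPM was also added then. The first set was compared without a test, past a 1.5-fold difference. Promoter windows are from RefSeq (GRCm38.p6), the patch release of the assembly that mm10 names.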

Additional observations from a re-analysis of the deposited data

Results flagged for a closer look

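The interaction of both knockdowns for P4hb was singled out because the effect of the double knockdown differed from the sum of the single effects by a test of that difference. The log2 value was -0.22 ± 0.05 (adjusted p = 0.0265, edgeR's quasi-likelihood test with Benjamini-Hochberg adjustment). P4hb averaged 1574 ± 44.1 CPM in the double knockdown, 1533 ± 22.2 CPM in shMtfr1l, 1634 ± 29.5 CPM in shOpa1 and 1368 ± 40.0 CPM in shNT libraries (SD, n = 3 each). Every knockdown library lay above every shNT library, an ordering that does not bear on the interaction. P4hb was the 1 call among 32 members, or 3.12%, beside 2.86% of all tested genes and 4.78% of those averaging 20 CPM or more. The call was lost in 9 of 20 alternatives. In the double knockdown both targets were lowered less than in the single knockdowns, and the part of this in the interaction was not tested.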

How the results depend on the processing

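Of 45 calls of single members, 16 kept their direction and stayed called in every alternative run, 19 stayed called without each single library, and none turned its sign; DESeq2, RLE size factors and the robust dispersion kept all 45. No filter kept 39, and the fit of only the groups compared kept 38. With the other groups left out, the members called with shMtfr1l were 4, against 7 in the fit reported. Leaving out each library or day in turn gave 2 to 8 members called with shMtfr1l, 6 to 17 in the double knockdown against shNT, 4 to 13 against shMtfr1l and 0 to 1 in the interaction. Over all genes it gave 638 to 1445 called with shMtfr1l, 2121 to 3422 in the double knockdown against shNT, 1769 to 3196 against shMtfr1l, 132 to 664 against shOpa1 and 113 to 453 in the interaction. All of these fits have fewer samples. No filter gave 1024 genes for the double knockdown against shOpa1 (597 in the fit reported) and 719 in the interaction, and DESeq2 gave 648 in the interaction (405 in the fit reported); the cause was not tested. In the first set, the pair of columns with the fewest had 1 member past 1.5-fold. The replicate numbers did not pair the libraries: same-numbered libraries' deviations correlated at -0.189 to 0.122, and 2 of 12 libraries correlated best with their own number. With the replicate block, 38 of the 45 calls were kept, and the members called were 7 with shMtfr1l, 9 with shOpa1, and 12, 9 and 0 for the double knockdown against shNT, shMtfr1l and shOpa1, and 1 in the interaction. Depth limits Derl3 alone among the members, whose lowest other count was 215 in a library.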
